A study of Mus musculus with 6 samples.

Results

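The tricarboxylic acid (TCA) cycle and mitochondrial fatty acid oxidation were examined through 39 genes in macrophages with and without c-Maf. The genes were taken by symbol, though with earlier results of these data known, and each was represented by the brightest of its array probes. Of 20251 genes and unnamed features tested, 39 were these genes, of which 22 belong to the TCA cycle and the entry of pyruvate and 17 to fatty acid oxidation. All 39 were well above background on each of the 5 arrays with scanner files, so the filter on dim probes removed none of them.

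c-Maf, encoded by Maf, is a transcription factor of the large Maf family, and the series asks what it controls in immune-suppressive macrophages. Total RNA was measured on 1-colour Agilent arrays from cultures labelled polarized M2-like BMM, 3 samples from mice carrying WT fetal liver grafts and 3 from mice carrying c-Maf KO grafts. Both groups were grown with the macrophage growth factor M-CSF at 10 ng per ml with daily additions from day 4, and no other cytokine was named. The labels give the genotypes without an allele, name no age, and do not state how many host cells remained or which samples came from separate animals, so that p-values measure the spread among these 6 samples alone, and this spread may be technical. The unit throughout is the log2 ratio of a sample to the median of the 6 samples for that probe, and differences are c-Maf KO minus WT. Where 3 values of a genotype are given, they stand in the order of replicates 1 to 3. As the median of each probe is 0, the middle pair of the 6 values lies symmetrically about 0.

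The TCA cycle burns acetyl groups to carbon dioxide in the mitochondrial matrix and hands the electrons to the respiratory chain, while several of its intermediates leave it for biosynthesis and signalling. Fatty acids enter the matrix as carnitine esters and are shortened by repeated rounds of beta-oxidation, which feed acetyl-CoA into the cycle. In macrophages an intact cycle and fatty acid oxidation are commonly linked to alternative, M2-type activation, and an interrupted cycle with accumulation of itaconate and succinate to inflammatory activation.

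The 39 genes were nearly level between the genotypes. None of the 39 passed limma's test, and the smallest adjusted p among them was 0.348, beside 7 calls among all features (0.0346%). The fit to the 5 scanner arrays, which leaves out c-Maf KO replicate 1, likewise called 0 of the 39, beside 0.0346% of all features. At an unadjusted limma p under 0.05 stood 1 of 39 genes, the pyruvate carboxylase gene Pcx, beside 12.6% of all features. On the 5 arrays 1 gene was below that p and higher (Pcx, beside 5.4% of all features) and 1 was below it and lower (Cpt2, the inner-membrane carnitine palmitoyltransferase, beside 5.65%). None of these shares of the 39 lay above that of all features.

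Most fitted differences were small on the brightest probe of each gene. Their intervals rest on the spread among these 6 samples alone. The fitted difference was under 1.2-fold in either direction for 38 of 39 genes, beside 82.8% of all features. The 95% interval lay within 1.5-fold either way for 38 of 39, beside 77.3%, and within 1.2-fold for 24 of 39, beside 33.3%. Pcx was the gene outside both the 1.2-fold size and the 1.5-fold interval. The median standard error was 0.069 log2 units for the 39 genes and 0.090 for all features, and the median size of the difference was 0.076 and 0.098.

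**Figure D1:**
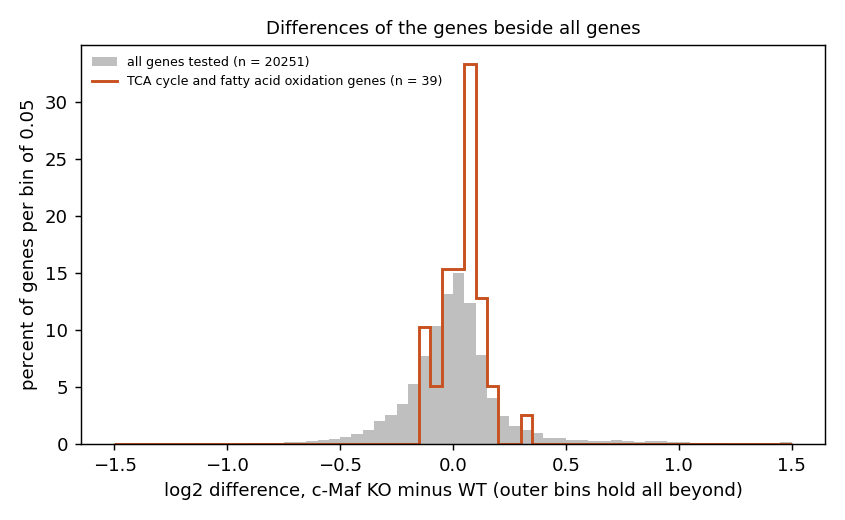
Percent of genes (vertical axis) in bins of 0.05 of the log2 difference, c-Maf KO minus WT (horizontal axis; the outer bins hold all values beyond them), for all 20251 features tested (grey) and the 39 TCA cycle and fatty acid oxidation genes (orange line). The 39 genes lie between -0.13 and 0.33, inside the bulk of all features.

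Small positive differences were more frequent than negative ones among the 39. Their median difference was 0.057, against 0.0018 for all features, and 27 of 39 were positive, against 50.7% of all features. The groups did not overlap for 8 of 39 genes, against 20% of all features. Among these, 7 had all c-Maf KO samples above all WT samples (Idh3a, Dlst, Sucla2, Pdha1, Pcx, Acads and Etfdh; 11.1% of all features) and 1 had them all below (Idh2; 8.86%). In bulk RNA a lower signal of a gene can come from fewer cells of a type or from less RNA per cell, which cannot be told apart.

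The c-Maf KO samples did not move together. The median log2 ratio over the 39 genes was -0.015, -0.0072 and -0.012 in WT and 0.030, 0.078 and -0.041 in c-Maf KO. c-Maf KO replicate 3 was thus the lowest of all 6 samples, and c-Maf KO replicate 2 the highest. Without c-Maf KO replicate 3 the median difference of the 39 was 0.093, with 33 positive, and without c-Maf KO replicate 2 it was 0.027, with 22 positive. The median over all features was -0.0025, 0.0027 and -0.0063 in WT and 0.021, 0.011 and -0.021 in c-Maf KO, so c-Maf KO replicate 3 was also lowest there.

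**Figure D2:**
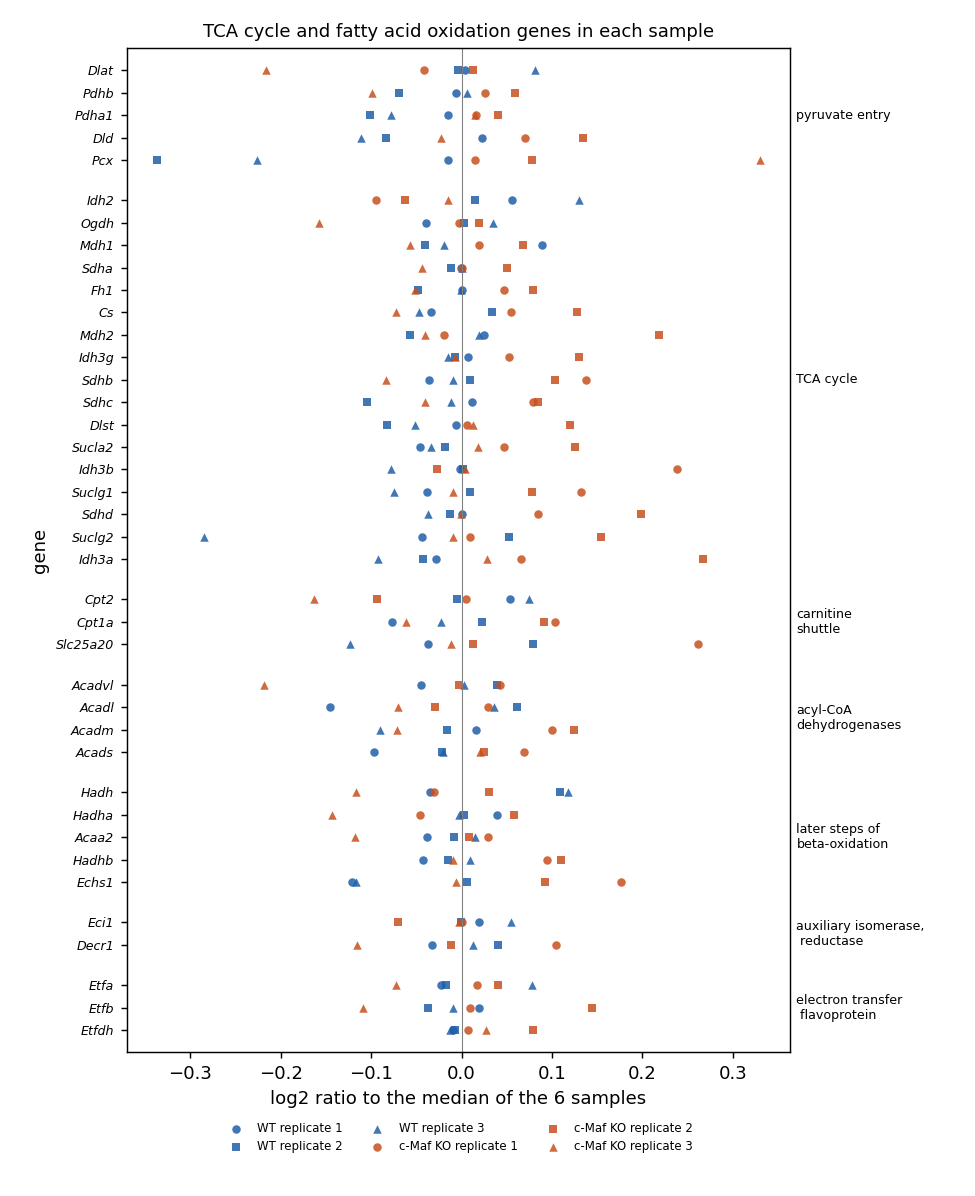
Log2 ratio to the median of the 6 samples (horizontal axis) of each of the 39 genes (rows, grouped by role), with WT samples in blue and c-Maf KO samples in orange and a marker shape for each replicate number. For most genes the genotypes interleave within about 0.1 to 0.2 log2 units of 0, and Pcx has the widest gap between the group means.

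The genes of the cycle and of pyruvate entry lay slightly higher in c-Maf KO than those of fatty acid oxidation. Of the 22 genes of the first group, 19 had positive differences, with a median of 0.070 and a range of -0.12 to 0.33. Of the 17 genes of fatty acid oxidation, 8 were positive, with a median of -0.0070 and a range of -0.13 to 0.16. By sample, the median of the 22 genes was -0.0040, -0.015 and -0.027 in WT and 0.037, 0.082 and -0.019 in c-Maf KO. That of the 17 genes was -0.035, -0.00082 and 0.0032 in WT and 0.030, 0.030 and -0.072 in c-Maf KO. In both groups of genes c-Maf KO replicates 1 and 2 stood above every WT sample and c-Maf KO replicate 3 did not, and no test of the gap between the groups of genes was made.

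**Figure D3:**
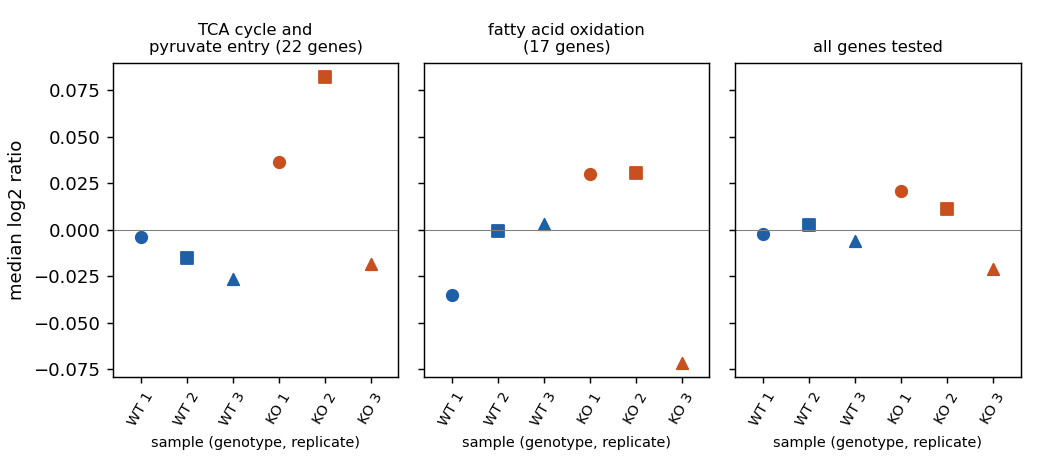
Median log2 ratio (vertical axis) of each sample (horizontal axis; KO is c-Maf KO) over the 22 genes of the TCA cycle and pyruvate entry, the 17 genes of fatty acid oxidation and all features. c-Maf KO replicate 2 is highest over the 22 genes (0.082), and c-Maf KO replicate 3 is lowest over the 17 (-0.072).

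Pyruvate enters the cycle by pyruvate carboxylase (Pcx), which makes oxaloacetate and so refills the cycle, or by the pyruvate dehydrogenase complex (Pdha1, Pdhb, Dlat and the shared subunit Dld), which makes acetyl-CoA. Pcx had the largest difference of all 39 genes. Its probe (chromosome 19, 4621610 to 4621669, mm9) measured -0.015, -0.34 and -0.23 in WT and 0.015, 0.078 and 0.33 in c-Maf KO. Every c-Maf KO sample lay above every WT sample, with WT replicate 1 and c-Maf KO replicate 1 only narrowly apart. The difference of 0.33, or 1.26-fold (SE 0.12, 95% interval 0.038 to 0.63), did not pass limma's test over all features (adjusted p = 0.348). It was 0.39 on the 5 arrays (limma, adjusted p = 0.422). Left-out samples moved it between 0.24 and 0.42, and its unadjusted p was no longer under 0.05 without WT replicate 2, WT replicate 3, c-Maf KO replicate 2 or c-Maf KO replicate 3. Relative to the 75th percentile of each array, the level of the Pcx probe was -0.68 log2 units in WT (n = 3) and -0.29 in c-Maf KO (n = 2).

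The median over markers of stromal cells followed the same order of samples as Pcx. Of 10 fibroblast and stromal markers, 9 were measured, all 9 were positive, 7 were below an unadjusted limma p of 0.05 (6.69% of all features were so and higher), and their median difference was 0.87. The median of the 9 was -0.11, -0.92 and -0.68 in WT and 0.16, 0.23 and 0.47 in c-Maf KO. Their mean was 0.21, 0.076 and 0.50 in c-Maf KO, so by the mean replicate 1 lay above replicate 2, unlike for Pcx. For Pcx and for the markers alike, WT replicate 1 was the highest WT sample, WT replicate 2 the lowest, and c-Maf KO replicate 3 the highest of all. The signal summed over the 9 markers, in multiples of the 75th percentile of the array, was 106 to 183 on the WT arrays and 239 to 264 on the arrays of c-Maf KO replicates 2 and 3; Lum, which encodes lumican, was not above background. The part of these markers in the Pcx difference was not tested.

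The upstream sequences of Pcx are shown because it is the member with the largest difference, and those of Idh2 and Cpt2, described further on, because they have the largest negative ones. They are the 250 bases before each transcription start in RefSeq (GRCm38.p6), 5′ to 3′ on the strand of the gene, with matches in capitals to any of 6 motifs searched on both strands. The motifs were the Maf half-site TGCTGA, the estrogen-related receptor half-site AAGGTCA, the NRF1 core GCATGCGC, the ETS site CCGGAAGT, the CCAAT box CCAAT and the GC box GGGCGG.
Pcx, first start (chr19:4510222-4510471, plus strand): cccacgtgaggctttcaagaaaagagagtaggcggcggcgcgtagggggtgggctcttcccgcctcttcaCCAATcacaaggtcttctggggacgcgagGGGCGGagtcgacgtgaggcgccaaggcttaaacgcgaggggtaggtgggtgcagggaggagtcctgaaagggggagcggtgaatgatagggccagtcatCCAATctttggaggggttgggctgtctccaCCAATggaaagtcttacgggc
Pcx, second start (chr19:4594069-4594318, plus strand): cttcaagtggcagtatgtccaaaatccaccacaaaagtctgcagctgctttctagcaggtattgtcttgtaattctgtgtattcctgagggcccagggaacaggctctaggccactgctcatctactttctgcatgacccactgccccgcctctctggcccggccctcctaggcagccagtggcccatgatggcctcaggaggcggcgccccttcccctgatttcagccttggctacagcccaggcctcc
Idh2 (chr7:80115351-80115600, minus strand): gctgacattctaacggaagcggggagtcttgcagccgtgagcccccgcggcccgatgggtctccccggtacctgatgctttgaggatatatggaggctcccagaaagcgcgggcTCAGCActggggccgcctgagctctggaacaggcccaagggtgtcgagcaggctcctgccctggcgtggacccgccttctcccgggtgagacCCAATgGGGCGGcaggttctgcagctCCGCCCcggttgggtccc
Cpt2 (chr4:107923590-107923839, minus strand): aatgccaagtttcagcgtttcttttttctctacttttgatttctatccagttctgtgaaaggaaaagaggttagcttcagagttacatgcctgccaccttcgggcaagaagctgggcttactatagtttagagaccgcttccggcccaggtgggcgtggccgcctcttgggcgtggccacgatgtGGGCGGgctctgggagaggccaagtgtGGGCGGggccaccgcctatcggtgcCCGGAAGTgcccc

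The first Pcx window held 3 CCAAT boxes and 1 GC box, and the second held none of the 6 motifs. Which of the starts the Pcx probe reads was not tested. RefSeq windows were found for 35 of the 39 genes, 41 windows in all, and none were listed for Sdhc, Acaa2, Decr1 and Idh3a. The Maf half-site was in 4 of the 41 windows (9.76%; Etfb, Idh2, Mdh1 and Suclg1), against 16.1% of 32851 windows of all genes. The NRF1 core was in 6 windows (14.6%; Acadm, Etfa, Etfdh, Ogdh and Sdhb), against 2.26%, the GC box in 24 (58.5%), against 32.7%, and the CCAAT box in 20 (48.8%), against 33.8%. The ETS site was in 2 windows (4.88%; Cpt2 and Slc25a20), against 2.88%, and the estrogen-related receptor half-site in 1 (2.44%; Acadm), against 4.08%. Several starts of 1 gene, such as those of Ogdh, share sequence and are not separate genes, and a match of letters is no evidence of binding.

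On their brightest probes, the subunits of the pyruvate dehydrogenase complex differed by at most 0.12 log2 units. Dld, the lipoamide dehydrogenase shared with the 2-oxoglutarate dehydrogenase complex, measured 0.023, -0.084 and -0.11 in WT and 0.070, 0.13 and -0.023 in c-Maf KO (chromosome 12, 32016889 to 32016948). The difference was 0.12 (SE 0.070, 95% interval -0.054 to 0.29, adjusted p = 0.533), and the groups overlapped through WT replicate 1 and c-Maf KO replicate 3. A second, dimmer Dld probe gave 0.16 (SE 0.098). Dlat, the acetyltransferase core, measured 0.0042, -0.0042 and 0.081 in WT and -0.041, 0.013 and -0.22 in c-Maf KO (chromosome 9, 50442953 to 50443012). Its difference of -0.11 (SE 0.078, 95% interval -0.30 to 0.083, adjusted p = 0.59) rested largely on c-Maf KO replicate 3, without which it was -0.041.

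The E1 subunits of the complex, which decarboxylate pyruvate, had differences of 0.089 for Pdha1 (adjusted p = 0.541), with groups that did not overlap, and of 0.019 for Pdhb (chromosome 14, 8998548 to 8998607; SE 0.066, adjusted p = 0.925). Pdhb measured -0.0060, -0.069 and 0.0060 in WT and 0.026, 0.059 and -0.099 in c-Maf KO on its brightest probe. A second bright probe gave 0.043, and another, dim, probe (chromosome 14, 9003605 to 9003664) gave -0.27 (SE 0.11). The Pdhb probes thus differed in sign, and the mean of its probes gave -0.070.

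The enzymes of the cycle proper showed no difference past the test in any of 17 genes, of which 15 were positive with a median of 0.064. Citrate synthase (Cs), which joins acetyl-CoA to oxaloacetate, had a difference of 0.052. Isocitrate is oxidised by the NAD-dependent enzyme Idh3, made of the catalytic subunit Idh3a and the subunits Idh3b and Idh3g, or by the NADP-dependent enzyme of the mitochondria, Idh2. Idh3a measured -0.029, -0.043 and -0.092 in WT and 0.066, 0.27 and 0.029 in c-Maf KO (chromosome 9, 54451368 to 54451427). All c-Maf KO samples lay above all WT samples, replicate 2 by far the most. The difference was 0.18, or 1.13-fold (SE 0.080, 95% interval -0.020 to 0.37), with limma's adjusted p = 0.439, and without c-Maf KO replicate 2 it was 0.10. Idh3b and Idh3g had differences of 0.097 and 0.064 with groups that overlapped, and c-Maf KO replicate 1 alone stood high for Idh3b, at 0.24, without which the difference was 0.014.

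Idh2 went the other way from the Idh3 subunits, without passing the test. It measured 0.056, 0.015 and 0.13 in WT and -0.095, -0.063 and -0.015 in c-Maf KO (chromosome 7, 87239736 to 87239795). This was the sole member with all c-Maf KO samples below all WT samples. The difference of -0.12 (SE 0.060, 95% interval -0.27 to 0.022) had an adjusted p = 0.458 in limma and lay between -0.15 and -0.093 when single samples were left out. Idh1, the cytosolic NADP-dependent enzyme outside the 39, had a difference of -0.13 (adjusted p = 0.485), also with groups that did not overlap, and one of -0.085 without WT replicate 2.

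The 2-oxoglutarate dehydrogenase complex, the next oxidative step, had differences of both signs, none past the test. Its E1 subunit Ogdh measured -0.039, 0.0026 and 0.035 in WT and -0.0026, 0.019 and -0.16 in c-Maf KO (chromosome 11, 6256583 to 6256642), a difference of -0.047 (SE 0.069, adjusted p = 0.806). c-Maf KO replicate 3 alone was low, and without it the difference was 0.0086. The other Ogdh probes gave -0.017 and 0.046, the latter with an SE of 0.26, so the sign differed between probes. Dlst, the succinyltransferase core, had a difference of 0.093 (adjusted p = 0.564), with groups that did not overlap.

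The 3 subunits of succinate-CoA ligase, which makes a nucleoside triphosphate directly, had differences of 0.096 for Sucla2, 0.10 for Suclg1 and 0.14 for Suclg2. Suclg2, the GTP-forming beta subunit, measured -0.044, 0.052 and -0.29 in WT and 0.0089, 0.15 and -0.0089 in c-Maf KO (chromosome 6, 95424712 to 95424771). The low WT replicate 3 set most of that gap (SE 0.10, 95% interval -0.11 to 0.40, adjusted p = 0.591), and without it the difference was 0.048. Sucla2, the ATP-forming beta subunit, had groups that did not overlap, with WT between -0.046 and -0.018 and c-Maf KO between 0.018 and 0.13 (adjusted p = 0.528).

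Succinate dehydrogenase, which is also complex II of the respiratory chain, had differences of 0.0064 for the flavoprotein Sdha, 0.064 for the iron-sulfur subunit Sdhb, 0.076 for Sdhc and 0.11 for Sdhd, the last pair being membrane anchors. Second bright probes gave 0.14 for Sdhb (SE 0.077) and 0.053 for Sdhc (SE 0.069). Sdhd measured 0.000044, -0.013 and -0.037 in WT and 0.085, 0.20 and -0.000044 in c-Maf KO (chromosome 9, 50404630 to 50404689). c-Maf KO replicate 3 lay just below WT replicate 1, and the difference was not past the test (SE 0.069, 95% interval -0.058 to 0.28, adjusted p = 0.546); without c-Maf KO replicate 2 it was 0.059. The 4 assembly factors of the enzyme, Sdhaf1 to Sdhaf4, were positive too, with a median of 0.089 and none below an unadjusted p of 0.05. Fumarase (Fh1) had a difference of 0.041. The malate dehydrogenases, cytosolic Mdh1 and mitochondrial Mdh2, had differences of 0.00018 and 0.057, and the sign of Mdh1 turned with the centring of the value table, to -0.0011, and with single samples left out.

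**Figure D4:**
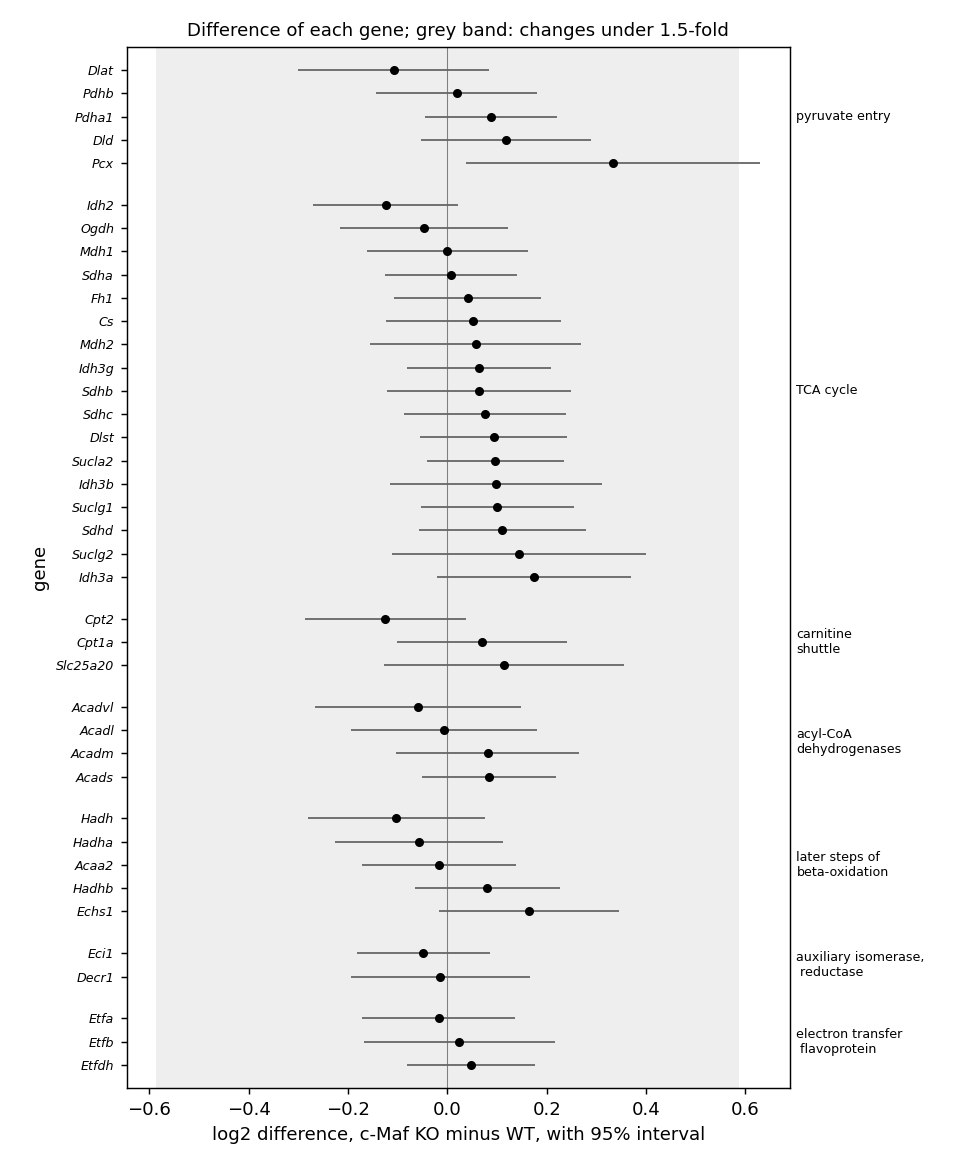
Log2 difference, c-Maf KO minus WT, with its 95% interval from limma (horizontal axis) for each of the 39 genes (rows, grouped by role), 3 samples per genotype; the grey band spans changes under 1.5-fold. All intervals except that of Pcx (0.038 to 0.63) lie within the band.

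Fatty acids reach the matrix through the carnitine shuttle, and its 3 genes did not share a direction. Cpt1a, the outer-membrane enzyme that is the usual control point of oxidation, had a difference of 0.070 (95% interval -0.10 to 0.24, adjusted p = 0.699), with groups that overlapped. A second, dimmer Cpt1a probe gave 0.13 (SE 0.055), with WT between -0.11 and -0.047 and c-Maf KO between 0.047 and 0.069. Cpt1a was the best repeated member, with 9 spots on each array whose SD was 0.028 to 0.044, against an SD between samples of 0.050 in WT and 0.092 in c-Maf KO (n = 3 each). For Cpt1a the spread between samples was thus larger than that between spots. Slc25a20, the carnitine-acylcarnitine carrier of the inner membrane, measured -0.037, 0.079 and -0.12 in WT and 0.26, 0.012 and -0.012 in c-Maf KO (chromosome 9, 108585399 to 108585458). Only c-Maf KO replicate 1 stood clear of the WT samples, and the difference was 0.11 (SE 0.099, 95% interval -0.13 to 0.36, adjusted p = 0.654), or 0.027 without that sample.

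Cpt2, which turns acylcarnitines back into acyl-CoA, had the most negative difference of the 39. It measured 0.054, -0.0049 and 0.075 in WT and 0.0049, -0.093 and -0.16 in c-Maf KO (chromosome 4, 107576591 to 107576650). WT replicate 2 lay just below c-Maf KO replicate 1, so the groups overlapped. The difference of -0.13 (SE 0.066, 95% interval -0.29 to 0.037) had an adjusted p = 0.492 in limma. On the 5 arrays, without c-Maf KO replicate 1, it was -0.17 (limma, adjusted p = 0.425), and there its unadjusted p was under 0.05. A second Cpt2 probe, dim, gave 0.0019 (SE 0.10), so the direction was not shared by both probes.

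The acyl-CoA dehydrogenases, which open each round of beta-oxidation on chains of falling length, had differences of both signs, none past the test. The differences were -0.059 for Acadvl (very long chain), -0.0070 for Acadl (long), 0.081 for Acadm (medium) and 0.084 for Acads (short). Acads had groups that did not overlap, with WT between -0.096 and -0.021 and c-Maf KO between 0.021 and 0.069, but its adjusted p was 0.566 in limma. Acadl ran from -0.15 to 0.061 within WT alone, wider than its c-Maf KO samples.

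The later steps of the spiral likewise had no common direction. Echs1, the short-chain enoyl-CoA hydratase, measured -0.12, 0.0063 and -0.12 in WT and 0.18, 0.092 and -0.0063 in c-Maf KO (chromosome 7, 147291772 to 147291831). WT replicate 2 and c-Maf KO replicate 3 lay side by side in the middle, and the difference of 0.16, or 1.12-fold (SE 0.074, 95% interval -0.017 to 0.35), had an adjusted p = 0.434. Hadh, the short-chain hydroxyacyl-CoA dehydrogenase, had a difference of -0.10 (adjusted p = 0.586). The trifunctional protein of long chains is made of Hadha and Hadhb, whose differences were -0.057 and 0.081, of opposite sign and both within their spread. Acaa2, the thiolase of medium chains, had a difference of -0.017, and the SD of its repeated spots was 0.013 to 0.035, against an SD between samples of 0.027 in WT and 0.080 in c-Maf KO (n = 3 each).

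The helper enzymes for unsaturated chains, Eci1 (an isomerase) and Decr1 (a reductase), had differences of -0.048 and -0.014. The electron transfer flavoprotein takes the electrons of the acyl-CoA dehydrogenases to ubiquinone. Its subunits Etfa and Etfb had differences of -0.018 and 0.024, and its ubiquinone reductase Etfdh had one of 0.048. Etfdh was the most even gene within WT, with values of -0.0094, -0.0072 and -0.013, and its c-Maf KO values of 0.0072, 0.079 and 0.027 all lay above them (SE 0.053, adjusted p = 0.729 in limma). On their brightest probes the 3 genes of electron transfer all had 95% intervals within 1.2-fold. A second bright Etfb probe gave a larger difference of 0.13 (SE 0.081), and a dim one gave 0.014.

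Genes that regulate or surround these pathways were counted beside the 39. Over 12 lists, 139 of 145 genes were measured; 0 passed limma's adjusted test, 11 were higher and 2 lower at an unadjusted p under 0.05, against 6.69% and 5.87% of all features. The largest difference was in Pdk4, a kinase that switches off the pyruvate dehydrogenase complex. Pdk4 measured -0.20, -1.0 and -0.74 in WT and 0.20, 0.44 and 0.56 in c-Maf KO. All c-Maf KO samples were above all WT samples, and the difference was 1.04, or 2.06-fold (SE 0.22, 95% interval 0.51 to 1.58, limma adjusted p = 0.192). Its order of samples was that of the stromal median and of Pcx, with WT replicate 1 highest in WT and c-Maf KO replicate 3 highest of all. The part of the stromal markers in the Pdk4 difference was not tested. Of the other 9 regulators of pyruvate entry, none was below an unadjusted p of 0.05, and the pyruvate carrier gene Mpc1 had a difference of 0.20 (adjusted p = 0.409).

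Among 16 genes that refill or drain the cycle, 3 were higher and 0 lower at an unadjusted p under 0.05, against 6.69% and 5.87% of all features. Me1, the cytosolic malic enzyme that makes NADPH, measured -0.27, -0.069 and -0.28 in WT and 0.34, 0.15 and 0.069 in c-Maf KO, a difference of 0.39 (SE 0.10, adjusted p = 0.236 in limma). Acod1, which makes itaconate from cis-aconitate, measured -0.28, -0.032 and -0.43 in WT and 0.61, 0.81 and 0.032 in c-Maf KO, a difference of 0.73 (SE 0.22, adjusted p = 0.281). On the 5 arrays, which lack c-Maf KO replicate 1, the Acod1 difference was 0.67 (limma, unadjusted p = 0.0522). In the value table without that sample the unadjusted limma p was 0.0517. On the 5 arrays with normexp the difference was 0.40 (limma, unadjusted p = 0.0497). With quantile normalization and the percentile of detected probes there, the unadjusted limma p was 0.0586 and 0.0459. Me1 and Acod1 had groups that did not overlap, and in both c-Maf KO replicate 3 was the lowest c-Maf KO sample, unlike for Pcx and Pdk4. Aldh5a1, which returns the GABA shunt to succinate, measured -0.070, -0.71 and -0.10 in WT and 0.070, 0.24 and 0.30 in c-Maf KO, a difference of 0.50 (adjusted p = 0.362). Its samples stood in the order of the stromal median, and the part of the stromal markers was not tested. Without WT replicate 2 the Aldh5a1 difference was 0.29.

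**Figure D5:**
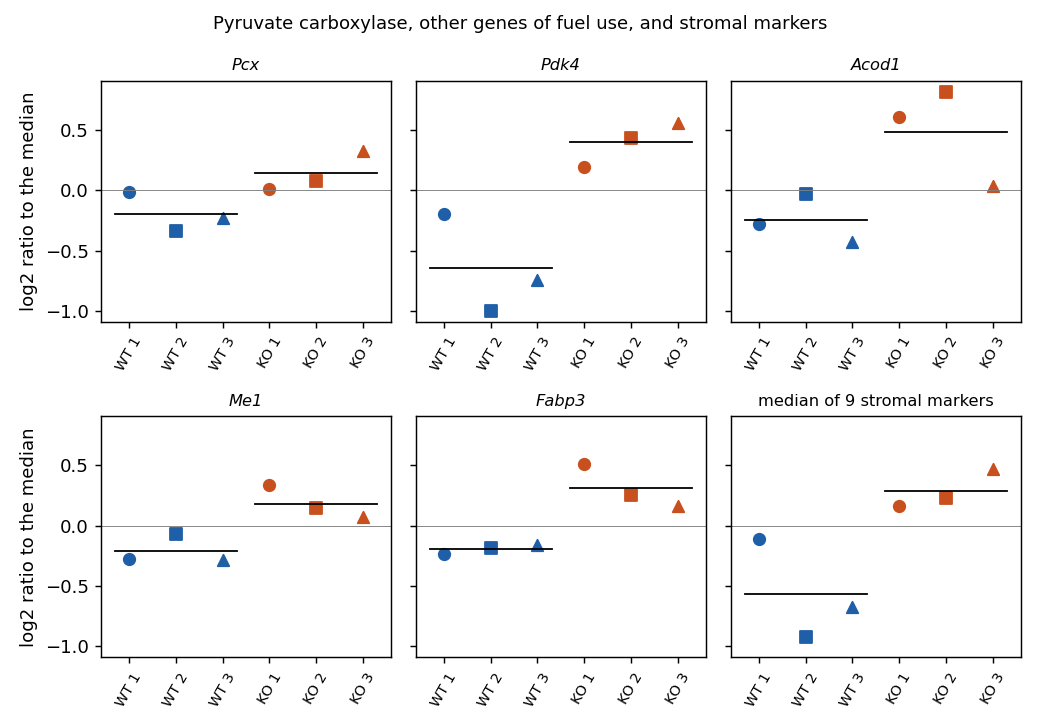
Log2 ratio to the median of the 6 samples (vertical axis) in each sample (horizontal axis; KO is c-Maf KO) for Pcx, Pdk4, Acod1, Me1 and Fabp3, and the median of the 9 measured stromal markers, with black lines at the group means. Pcx, Pdk4 and the stromal median are highest in c-Maf KO replicate 3, whereas Acod1, Me1 and Fabp3 are lowest there among the c-Maf KO samples.

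On the fatty acid side, 1 of 12 genes of uptake, binding and activation was below an unadjusted p of 0.05, beside 12.6% of all features. Fabp3, a cytosolic fatty acid binding protein, measured -0.24, -0.18 and -0.16 in WT and 0.51, 0.25 and 0.16 in c-Maf KO. The groups did not overlap, and the difference was 0.50, or 1.42-fold (SE 0.10, 95% interval 0.26 to 0.75, limma adjusted p = 0.182), with 0.56 on its second probe. The fatty acid translocase Cd36 had a difference of 0.13 (adjusted p = 0.531), with groups that overlapped.

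Lipid stores had 2 of 11 genes higher and 1 lower at an unadjusted p under 0.05, against 6.69% and 5.87% of all features. Hilpda and Abhd5, which restrain and assist the main triglyceride lipase, had differences of 0.48 and 0.24 (adjusted p = 0.292 and 0.305 in limma). Lipe, the hormone-sensitive lipase, had one of -0.19 (limma adjusted p = 0.283), or -0.12 with normexp. On the 5 arrays Abhd5 was not below an unadjusted p of 0.05, though it was there with normexp, where Lipe was not. Of 5 measured genes of carnitine transfer outside the 39 and its brakes, Cpt1c, the neuronal isoform, had a difference of 0.90 (adjusted p = 0.283), at a signal above background on 2 of 3 WT arrays, its second probe gave 0.30, and with normexp background correction on the 5 arrays it was 0.13, against 0.77 there without it. Cpt1b, the muscle isoform, had a difference of -0.21 (adjusted p = 0.611).

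Neighbouring oxidation pathways had no gene past the adjusted test. Of 24 other mitochondrial acyl-CoA enzymes, Ivd of leucine breakdown was higher at an unadjusted p under 0.05 (0.26, adjusted p = 0.252 in limma), beside 6.69% of all features. None of the 24 was lower at that p, and 19 were positive, with a median of 0.038. Of 13 genes of peroxisomal oxidation, Decr2 was lower at that p (-0.14, limma adjusted p = 0.393), beside 5.87% of all features, and none was higher. On the 5 arrays Decr2 was not below an unadjusted p of 0.05. The groups did not overlap for 3 of the 13 with c-Maf KO lower (8.86% of all features) and 1 with c-Maf KO higher (11.1%). Of 15 measured regulators of oxidative genes none was below that p in either direction; Tfam, which packages mitochondrial DNA, had a difference of 0.17 (adjusted p = 0.403), and Ppargc1a and Esrrg were not above background. The 8 measured genes of hexosamine synthesis, which branches from the sugar pathways, had none below that p either, and a median difference of 0.0050.

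The labelled cell type was checked against its markers. All 9 macrophage markers were measured, with a summed signal of 1136 to 1233 times the 75th percentile on the WT arrays and 1097 to 1126 on the c-Maf KO arrays; 4 were lower (5.87% of all features) and 1 higher (6.69%) at an unadjusted limma p under 0.05, and their median difference was -0.19. Although the tissue is labelled liver, 5 of 8 hepatocyte markers (Alb, Apoa1, Ttr, Hnf4a and Cps1) were not above background, and the other 3 (Afp, Serpina1a and Tat) summed to 3.99 to 5.10 times the 75th percentile. Maf, the targeted gene, measured 1.92, 1.98 and 2.03 in WT and -2.22, -2.36 and -1.92 in c-Maf KO (adjusted p = 0.000558 in limma), so the low signal was in every c-Maf KO sample.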

How the data were processed

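The spot intensities of 5 arrays (WT replicates 1 to 3, c-Maf KO replicates 2 and 3) were extracted by the authors with Agilent Feature Extraction 10.7.3.1, per the file headers. The authors' deposited value table covers all 6 samples and holds linear ratios to each probe's median over the samples, as read from the values; the sources used here do not give the steps behind it. Its log2 values followed the scanner intensities divided by the 75th percentile of the array (Pearson r over kept probes 0.999), and the largest gap for a probe of the 39 genes was 0.013 log2 units. Median log2 ratios of the columns over all probes were 0.024, 0.0070 and -0.0088 in WT and -0.057, 0.068 and -0.054 in c-Maf KO; no further centring was applied.

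Probes well above background on at least 2 arrays were kept (28271), and a gene was its kept probe of highest mean processed intensity. Symbols are those of the array files, updated through RefSeq accessions for 17556 probes, and probe coordinates are mm9, as in the files. Differences were tested on log2 ratios with limma 3.58.1 in R 4.3.3 (lmFit, eBayes, no covariates), with Benjamini-Hochberg adjustment over 20251 features and a threshold of 0.05. The fit was tested on simulated data. The share of probes above background was 48.9% to 50.5% per array, with 134 to 167 of 59305 spots flagged and left out, and 0 saturated spots; the number of arrays limits the precision. Among the 5 arrays, those of WT lay in row 1 and those of c-Maf KO replicates 2 and 3 in row 2 of slide 1, and genotype cannot be told apart from row.

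The 39 genes, the other lists and the tests were chosen with earlier results of these data known. Each of the 39 is named with its difference. Values of all samples are given by rule for the 10 largest differences, the 5 lowest p, and genes whose probes differ in sign (3 of the 11 with several probes); other values shown were chosen after they were seen. Of each other list, up to 4 genes of lowest p could be named. Alternatives were the 5 arrays, normexp (offset 50), quantile normalization, other scalings, filters and probe rules, eBayes with trend and robust (statmod 1.5.0), array weights, a replicate block, and each sample left out.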

Additional observations from a re-analysis of the deposited data

How the results depend on the processing

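Under every alternative 0 of the 39 genes were called. Those below an unadjusted p of 0.05 numbered 1 in the main analysis (12.6% of all features) and 2 on the 5 arrays (11.0%). On the 5 arrays they numbered 3 with normexp (13.4%), quantile normalization (11.9%) or the percentile of detected probes (11.3%). In the value table they numbered 2 after centring (13.3%) or quantile normalization (12.3%), 4 with trend and robust (13.8%) and 3 with array weights (16.2%). With single samples left out they numbered 0 to 2, beside 9.54% to 15.3% of all features. Deviations of same-numbered replicates had correlations of -0.028, -0.061 and 0.040, which cannot show whether the samples were paired. With the replicate block 0 of the 39 were below that p, and 3 features in all were called. All-feature calls, 7 in the main analysis, were 21 with normexp, 2 without the filter, 22 with probes above background on all 5 arrays, 138 with trend and robust, 2 with WT replicates 1 and 3 averaged (added after seeing the data, since their file names share a tag), and 2 to 99 with single samples left out, the 99 without WT replicate 1. Groups did not overlap for 13 genes on the 5 arrays and for 9 to 22 with single samples left out, where fewer samples make overlap rarer. The share of all features was not counted for these smaller sets of samples, so these counts were not compared with it. With single samples left out, the median was 0.027 to 0.093 for the 39 genes, 0.047 to 0.11 for the cycle and pyruvate entry and -0.031 to 0.040 for fatty acid oxidation, each highest without c-Maf KO replicate 3.

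Signs turned for 11 genes, whose differences lay between -0.059 and 0.057. Mdh1 was -0.0062 on the 5 arrays, -0.00022 with normexp, -0.0077 with quantile normalization and -0.0011 with centring. Pdhb was -0.0029 with quantile normalization and -0.070 for the mean of its probes, and Etfa was 0.0022 with array weights. With single samples left out the range was -0.029 to 0.040 for Mdh1, -0.013 to 0.066 for Pdhb, -0.072 to 0.032 for Acadl, -0.070 to 0.040 for Decr1, -0.040 to 0.016 for Etfa, -0.017 to 0.029 for Sdha, -0.026 to 0.10 for Mdh2, -0.040 to 0.086 for Etfb, -0.080 to 0.0086 for Ogdh, -0.11 to 0.021 for Acadvl and -0.045 to 0.029 for Acaa2. The cause of these shifts was not tested.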

Other observations

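Genes of mitochondrial protein import, chaperones and pores, which serve all matrix enzymes, were measured for 18 of 18 genes, of which 16 had positive differences with a median of 0.074. The groups did not overlap for 7 of them, all higher in c-Maf KO, beside 11.1% of all features. Tomm20, a receptor of the outer-membrane import channel, measured -0.048, -0.074 and -0.17 in WT and 0.16, 0.18 and 0.048 in c-Maf KO, a difference of 0.23 (SE 0.068, adjusted p = 0.276 in limma). Clpp, a protease of the matrix, had a difference of 0.19 (adjusted p = 0.305). Both were below an unadjusted p of 0.05 (6.69% of all features were so and higher), none of the 18 passed the adjusted test, and the median of the 18 was 0.0043 in c-Maf KO replicate 3 against 0.078 and 0.097 in c-Maf KO replicates 1 and 2.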
